A study of Caenorhabditis elegans with 4 samples.

Results

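The central part of chromosome V held 1150 of the 1638 BLMP-1 peaks that lay on V, and of 10159 in the whole list. A peak belonged to it when its midpoint lay at 0.25 to 0.75 of the stretch that the peaks of V span. On WormBase build WS180 that stretch ran from 7780 to 20899459, so that the centre reached from 5230700 to 15676539. The peaks came from chromatin immunoprecipitation and sequencing (ChIP-seq) of fed L1 larvae, which are newly hatched worms that have begun to feed. There were 4 libraries in 2 groups, BLMP-1 ChIP and input DNA, with 2 libraries each. The centre of V is set against the other 488 peaks of V and against the centres of I, II, III and IV, chosen in the same way.

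All libraries were made from hermaphrodites of strain OP109, grown at 20 °C. Both groups thus carried the mutation unc-119 (ed3) III and the transgene wgIs109, which holds blmp-1 fused to the TY1, EGFP and FLAG tags and an unc-119 (+) copy. The transgene had been brought in by particle bombardment, and the labels describe its expression as following that of blmp-1. The ChIP libraries were made with a goat antibody against EGFP, so the peaks show where the tagged protein was recovered, over all cells of whole larvae together. The labels give the stage as fed L1 although their general ChIP protocol speaks of embryos. Input DNA is chromatin of the same kind that did not go through the antibody step.

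BLMP-1 is a zinc-finger protein and the worm relative of vertebrate PRDM1 (Blimp-1), which binds DNA and represses transcription of its targets in, among others, B cells. In C. elegans it acts in the epidermis and in the timing of larval events, such as the turn that the distal tip cells make as the gonad grows. Its level is controlled by DRE-1, a subunit of a ubiquitin ligase that marks it for degradation. The centres of worm autosomes recombine less in meiosis than the arms and hold more of the widely conserved genes. On V, the arms carry many genes of large families such as chemoreceptors.

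The deposited list named the interval of each peak and a q-value from the peak caller PeakSeq, 1 for all libraries together. There was therefore no replicate error and no test between regions. Differences are given beside the spread over blocks of 500 kb and over the autosome centres, and quoted 95% intervals of shares (exact Clopper-Pearson) cover counting error only, with neighbouring peaks taken as independent. Strength of evidence is given as −log10 q, which is high for a low q and grows with the number of reads in a peak. ChIP and input tag counts, the numbers of reads that the caller compared in each peak, were inferred from the q-values and matched for 10158 of 10159 peaks. Their ratio measures enrichment. No library total was used, so depth is unknown. The positions are on WS180, and genes and sequence at them were not analysed here.

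The centre of V was set against the rest of V to see how far the binding list was concentrated in it. It held 110.1 peaks per Mb, against 46.72 in the rest of V, and peaks covered 6.22% of the centre and 2.42% of the rest. In blocks of 500 kb, the centre had 56.6 ± 17.5 peaks (mean ± SD, 20 blocks) and the rest of V 22.9 ± 10.6 (20 blocks). The ranges overlapped, with 30 to 91 peaks per block in the centre and 6 to 43 in the rest. The block across the right edge, from 15230700 to 15730699, held 24 peaks and is in neither set of blocks. Of the 20 central blocks, 14 held more peaks than any block of the rest. The arms of V were unlike each other, with 55.7 peaks per Mb on the left and 37.7 on the right.

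Compared with the other autosomes, the centre of V was the sparsest of the 5 centres although it took the largest part of its chromosome's peaks. Its density of 110.1 peaks per Mb stood beside 141.8 on I, 147.6 on II, 149.1 on III and 125.6 on IV. Blocks of 500 kb in those centres held means of 63.1 to 75.5 peaks with SDs of 13.1 to 16.0, and their range of 32 to 100 overlapped that of V almost wholly. The central share was 70.2% on V, against 62.1% to 66.6% on the other autosomes. The rest of V was sparser still, with 46.72 peaks per Mb, where the rest of I, II, III and IV had 72.31 to 90.75.

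**Figure D1:**
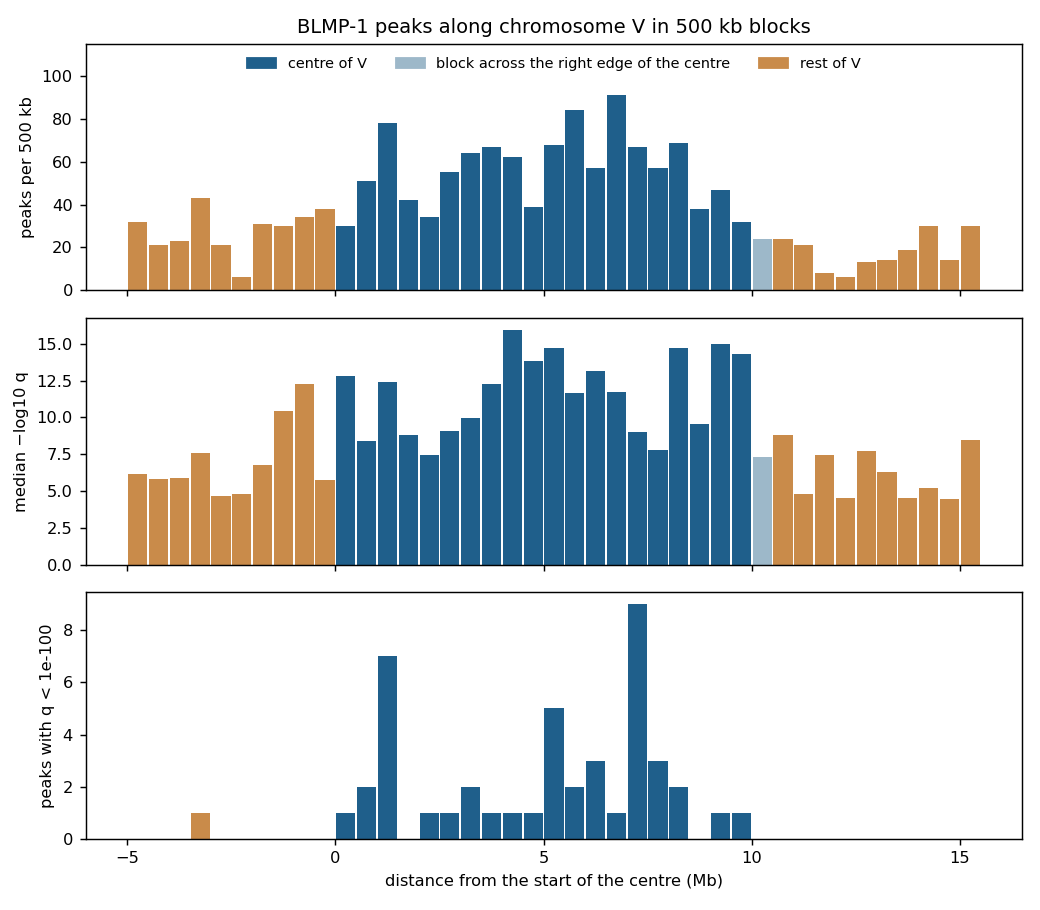
Peaks per 500 kb block (top), median −log10 q (middle) and number of peaks with q under 1e-100 (bottom) along V, against distance in Mb from the start of the centre; dark bars are central blocks, the pale bar lies across the right edge, and light brown bars are the rest of V. Central blocks hold 30 to 91 peaks, and the largest numbers of peaks with q under 1e-100 are 9 and 7.

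Along the centre, peaks were spread unevenly. The coefficient of variation of the 500 kb counts was 30.9% on V and 17.3% to 25.3% in the other centres. The fullest block, from 11730700 to 12230699, held 91 peaks, followed by 84 from 10730700 to 11230699 and 78 from 6230700 to 6730699. The emptiest full block was the first, from 5230700 to 5730699, with 30, and the last full one, from 14730700 to 15230699, held 32. Between the fullest blocks lay a thinner stretch from 6730700 to 7730699, with 42 and 34 peaks. Left and right of the midpoint of the centre there were 543 and 607 peaks, with median −log10 q of 11.6 and 11.1 and median tag ratios of 2.06 and 2.07. Each side sums over many blocks, so its number cannot be set against the spread between blocks.

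At the left edge the number of peaks did not step up. The first 500 kb inside the left edge held 30 peaks and the last 500 kb outside it 38. The median −log10 q, the measure of evidence explained above, was 12.8 inside and 5.71 outside. It made no lasting step either. The next block outward, from 4230700 to 4730699, had 12.29, and the next inward, from 5730700 to 6230699, had 8.4. At the left edge, the first members were at 5272415 to 5273536 (q = 2.94e-08) and 5312698 to 5312927 (q = 5.75e-09), and the nearest peaks outside at 5225561 to 5226019 (q = 1.29e-26) and 5224784 to 5225297 (q = 0.00024). On the right, the last full block inside the centre, from 14730700 to 15230699, held 32 peaks, the block across the edge 24 and the first full block outside, from 15730700 to 16230699, 24. The last members there lay at 15666736 to 15667534 (q = 3.58e-22) and 15663910 to 15664725 (q = 1.55e-40). Their neighbours outside lay at 15702431 to 15702758 (q = 1.56e-12) and 15703056 to 15703295 (q = 3.54e-07). The edges are fixed fractions of the span, and q-values of both kinds, low and moderate, lay on either side of them.

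Central peaks had lower q-values than the other peaks of V. Their median −log10 q was 11.4 (quartiles 5.06 and 27.8), against 6.05 (3.54 and 13.8) in the rest of V. Over 500 kb blocks, the block medians averaged 11.6 ± 2.68 in the centre and 6.61 ± 2.13 in the rest (SD, 20 blocks each), a difference larger than either SD. The ranges overlapped, at 7.47 to 15.9 in the centre and 4.44 to 12.3 in the rest. The block across the right edge, in neither set, had a median of 7.33. A q under 1e-20 was given to 393 central peaks, or 34.2% (95% interval 31.4 to 37.0), where the whole list had 30.6%. In the rest of V it was given to 88 peaks, or 18.0% (14.7 to 21.7).

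The lowest q-values of V were almost wholly central. A q under 1e-100 was given to 44 central peaks, or 3.83% (2.79 to 5.10), beside 3.0% in the whole list, and to 1 of the 488 other peaks of V. On the other autosomes such peaks were less one-sided, with 38 in the centre and 19 outside it on I, 42 and 19 on II, 26 and 21 on III, and 32 and 16 on IV. The centre thus held 97.8% of them on V and 55.3% to 68.8% elsewhere. Of all peaks it held 70.2% on V and 62.1% to 66.6% elsewhere, so on the other autosomes these shares were near those of all peaks. The centre-minus-arm difference of median −log10 q was 5.34 on V, against 0.76 to 3.76 on the other autosomes. The smaller differences there came with higher values on the arms, 8.27 to 9.91, than the 6.05 on the arms of V.

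Against the other centres, the q-values of the centre of V did not stand apart. Its median −log10 q of 11.4 lay between the 12.4 of the centre of I and the 10.8 of II and IV and 10.7 of III. With q under 1e-100 there were 3.83% of its peaks and 2.54% to 3.73% of those in the other centres, all within the counting interval of V except III. With q under 1e-20 there were 34.2%, against 28.3% to 34.1%.

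Enrichment differed less between the regions of V than q did. The median peak in the centre of V had 322 inferred ChIP tags and 146 input tags, against 232.5 and 111 in the rest of V. The median ratio of ChIP to input was 2.06 (quartiles 1.68 and 2.72) in the centre and 1.88 (1.59 and 2.47) in the rest. Over 500 kb blocks, the block medians of the ratio averaged 2.09 ± 0.127 in the centre and 1.93 ± 0.169 in the rest (SD, 20 blocks each). This difference was larger than the SD of the centre and smaller than that of the rest. Between the medians over peaks the difference was 0.18, and it was 0.072 with only peaks of q at most 1e-05. In peaks of at least 200 bp, input tags per kb also differed, with medians of 320.3 in the centre and 265.6 in the rest of V. Their part in the difference of q was not tested. In the other centres the median ratio was 2.04 to 2.21, so that V lay inside their range.

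Highly enriched peaks were less frequent in the centre of V than in the other centres. A ratio over 4 was found for 69 of its 1149 peaks with tag counts, or 6.0% (4.70 to 7.54), beside 7.54% of the whole list. The centres of I, II, III and IV had 11.5%, 7.37%, 8.0% and 10.2%. Only the value for II lay within the interval for V. The intervals for II (5.91 to 9.05) and III (6.41 to 9.83) overlapped that of V. Those for I (9.63 to 13.6) and IV (8.42 to 12.1) did not. In the rest of V the share was 4.51% (2.85 to 6.75), overlapping the central one. The highest ratio in the centre of V was 8.42, and the highest in each of the other centres were 8.0 to 13.4.

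**Figure D2:**
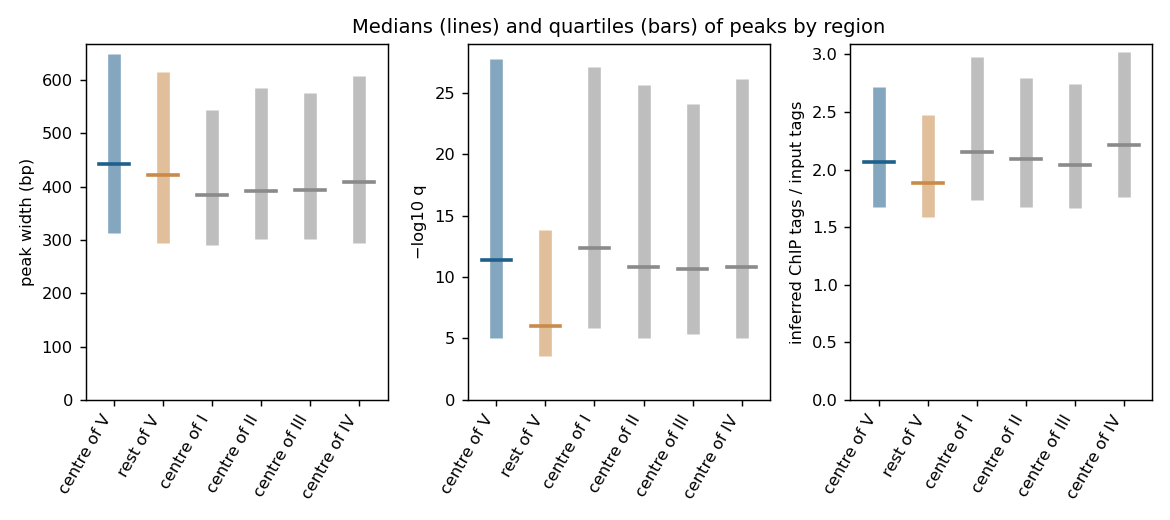
Median (line) and quartiles (bar) of peak width in bp, of −log10 q and of the ratio of inferred ChIP to input tags for the centre of V, the rest of V and the centres of I, II, III and IV. The centre of V has the widest median peak (441.5 bp), and its median −log10 q of 11.4 stands beside 6.05 in the rest of V.

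Peaks in the centre of V were wider than those of the other centres. Their median width was 441.5 bp (quartiles 313.25 and 649.5), against 385 bp on I, 391 on II, 394 on III and 408 on IV. The block medians averaged 444.4 ± 43.1 bp on V and 393.1 to 412.2 bp in the other centres, with SDs of 26.3 to 42.1 bp, so the difference from IV was smaller than 1 SD. The rest of V had a median of 421.5 bp (293.75 and 615), which the central one exceeded by 20 bp. On the other autosomes the sign was the opposite, with medians 19 to 56.5 bp lower in the centre than on the arms. Intermediate widths were more frequent in the centre of V than in the other centres. Widths from 500 to under 1200 bp were found for 24.3% and 11.5% (500 to under 800 and 800 to under 1200 bp) of peaks in the centre of V, against 19.8% and 7.61% in the other centres pooled. Peaks of at least 1200 bp were equally frequent, at 5.48% and 5.76%. In the rest of V the intermediate classes held 24.6% and 5.94%, so only the wider of them was more frequent in the centre of V than there.

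Since q falls with width, the regions were also compared within classes of width. In the class from 300 to under 500 bp, which held 423 central peaks of V, the median −log10 q was 10.4 in the centre of V, 6.75 in the rest of V (187 peaks) and 12.1 in the other centres (1776 peaks). From 500 to under 800 bp the order of V and the other centres was turned, with 23.1 in the centre of V (279 peaks), 9.7 in the rest (120) and 19.8 in the other centres (852). From 800 to under 1200 bp the medians were 28.9, 10.9 and 31.2, and from 1200 bp 47.9, 13.1 and 49.9, in the same order of regions. The centre of V therefore lay close to the other centres in these classes, and the rest of V below both in each of them. The tag ratio behaved likewise in peaks of 500 bp or more. It had medians of 2.27, 2.12 and 1.88 in the 3 widest classes of the centre of V, against 1.74, 1.72 and 1.59 in the rest of V. In peaks under 300 bp the order was the other way, with 2.03 and 1.95 in the centre and 2.11 and 2.08 in the rest. The cutoff on q keeps out peaks that have few tags and a low ratio, so the ratios of narrow peaks are bounded by it.

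**Figure D3:**
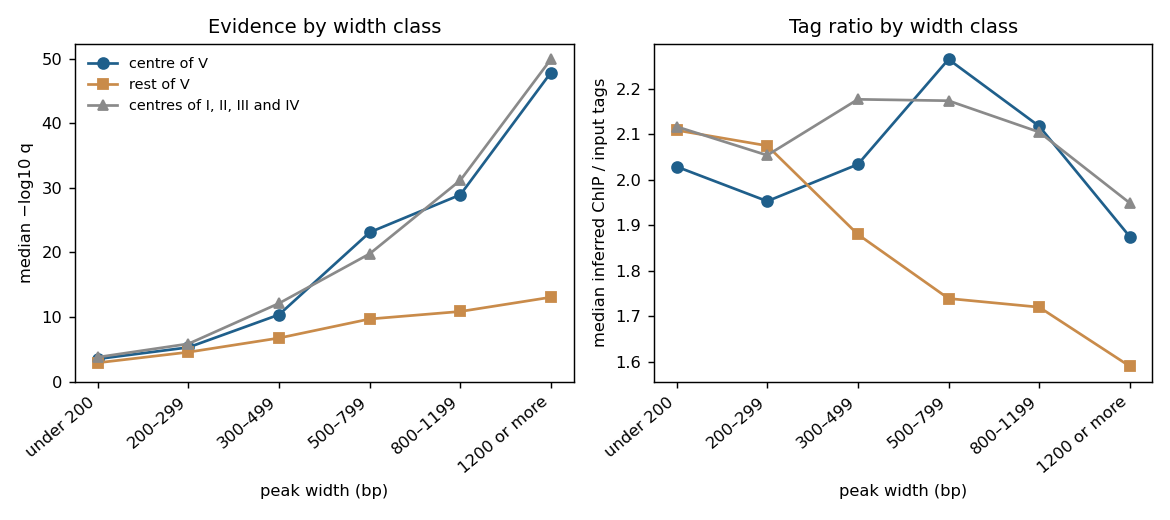
Median −log10 q (left) and median inferred ratio of ChIP to input tags (right; the axis does not start at 0) in 6 classes of peak width, for the centre of V, the rest of V and the pooled centres of I, II, III and IV. From 500 bp upwards the ratio in the rest of V is 1.59 to 1.74 and in the centre of V 1.88 to 2.27.

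The strongest peaks of the centre of V ranged from ones under 1000 bp with high tag ratios to wider ones with lower ratios. The 25 of lowest q had widths of 573 to 3400 bp, all above the central median of 441.5 bp. Tag counts were inferred for 24, with ratios of 2.38 to 8.33. Among these 25, 12 were under 1000 bp wide and had ratios of at least 3.98. Another 11 were at least 1200 bp wide, and the highest ratio among those with tag counts was 3.56. The remaining 2 were 1088 and 1104 bp wide, with ratios of 6.13 and 3.58. These peaks were chosen by q, which rests on the same tags as the ratio, so a narrow peak could enter only with a high ratio, and the relation of width to ratio among them is a description. For all 44 peaks with q under 1e-100 the median width was 967 bp and the median ratio 4.04. They lay in 18 of the 20 full central blocks, with most (9) from 12230700 to 12730699 and the next most (7) from 6230700 to 6730699.

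The lowest q of all, 6.50e-294, belonged to a peak of 3132 bp from 8038564 to 8041695. It was the only peak of the list without inferred tags, because the tail probability behind its q came out as a round 5e-297 that matched no tag pair. Second was a peak of 3400 bp from 12551493 to 12554892 (q = 1.44e-226), with 3004 ChIP and 1003 input tags. It lay in a chain together with the peaks from 12548046 to 12551110 (q = 4.26e-174, ratio 3.14) and from 12555223 to 12558587 (q = 1.11e-143, ratio 2.57). These 3 wide neighbours were separated by gaps of 382 and 330 bp. To the left of that chain lay the peak with the fourth-lowest q, from 12525516 to 12526603 (q = 1.54e-205), which was narrower and more enriched, with 1417 ChIP and 231 input tags and a ratio of 6.13.

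Peaks with a ratio over 4 were found in each full 500 kb block of the centre except the one from 7730700 to 8230699, with 1 to 7 per block. That block holds the peak of lowest q, which has no inferred tags and could not be counted. Peaks under 1000 bp with a ratio over 4 had some of the lowest q-values. The peak from 6105047 to 6105883 (q = 8.25e-208) had 1471 ChIP and 250 input tags, a ratio of 5.88. Further ones lay at 6350931 to 6351622 (ratio 5.10), 12875631 to 12876403 (6.42) and 5385618 to 5386508 (5.82). The most enriched among the 25 of lowest q, from 12928794 to 12929514, had 983 ChIP tags over 118 input tags, a ratio of 8.33 (q = 3.16e-168). It stood alone, 25750 bp from its left and 21567 bp from its right neighbour. Its ratio was exceeded in the centre by 8.42, at a peak of 386 bp from 6736843 to 6737228, which was picked out after its value was seen. That peak had 497 ChIP and 59 input tags and a q of 4.74e-86, so its fewer tags gave weaker evidence.

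The others among the 25 are given by width. Wide ones with ratios under 4 lay at 14506724 to 14508670 (ratio 3.56), 13390552 to 13392300 (3.29), 8660052 to 8663385 (2.38), 12298155 to 12299807 (3.24), 11679778 to 11681820 (2.98), 12293974 to 12296350 (2.92) and 6429825 to 6431437 (3.24). Peaks under 1000 bp lay at 10601986 to 10602908 (5.87), 8409341 to 8410070 (5.0), 12357288 to 12358068 (5.29), 10292659 to 10293363 (4.55), 11802318 to 11802947 (5.10), 5822900 to 5823472 (6.68) and 13081002 to 13081804 (3.98). The last of the 25, from 6349487 to 6350590, was 1104 bp wide with a ratio of 3.58.

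**Figure D4:**
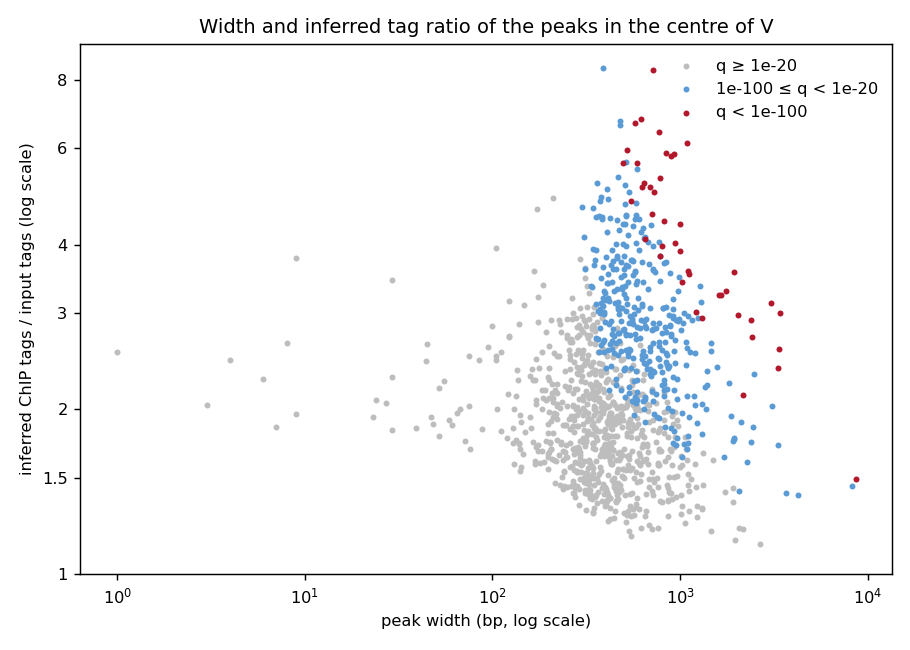
Width (log scale, bp) and inferred ratio of ChIP to input tags (log scale) of the 1149 peaks with tag counts in the centre of V, coloured by q. Peaks with q under 1e-100 run from ones under 1000 bp with ratios over 6 to a peak of 8610 bp with a ratio of 1.49.

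The widest peaks were not the most enriched. A width of 8610 bp was reached from 10712987 to 10721596, with 7309 ChIP and 4902 input tags, a ratio of 1.49 (q = 2.68e-104). The next, 8209 bp from 6221872 to 6230080, had 7073 and 4872 tags, a ratio of 1.45 (q = 2.50e-89). These were 569.3 and 593.5 input tags per kb, where the median of central peaks of at least 200 bp was 320.3, so their input was high as well. Those of 4224 bp from 13786782 to 13791005 and of 3651 bp from 5843400 to 5847050 had ratios of 1.4 each, with 483.2 and 458.0 input tags per kb. The fifth, from 12551493 to 12554892, was the strong peak given above, with 295.0. Of the 62 central peaks of at least 1200 bp with tag counts, 30.6% had a ratio under 1.5, against 12.4% of the 1087 narrower ones. The list holds only peaks with q of at most 0.01, and q rests on the same tags. A narrow peak with few tags could therefore not enter at a low ratio, and this contrast is a description. All together the 63 wide peaks made up 20.9% of the length covered by central peaks.

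At the other end, 19 central peaks (1.65%, beside 1.82% of the whole list) were at most 50 bp wide, and 3 of them had 1 to 4 bp. The single base at 14027523 had 51 ChIP and 20 input tags (q = 0.000299). These widths are shorter than a sequenced fragment. The tags behind them must therefore reach beyond the listed interval.

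Across the 1149 central peaks with tags, −log10 q was related to width (Spearman's rho 0.62) and to the ratio (0.76), while ratio and width were almost unrelated (0.054). In the rest of V the last of these was −0.25, over 488 peaks. The peaks share libraries and depth, and the tags enter both q and the ratio, so these are descriptions of the list.

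Gaps under 1 kb were about as frequent in the centre of V as in the other centres. The median gap between neighbours was 3097 bp, against 8500.5 bp in the rest of V and 2677 to 2910 bp in the other centres. A gap under 1 kb was found for 28.5% of neighbours (25.9 to 31.2), against 15.4% (12.3 to 19.0) in the rest of V and 27.3% to 30.8% in the other centres. The share of gaps under 1 kb in the centre of V thus differed from the rest of its chromosome and lay within the range of the other centres. The median gap of the centre of V was longer than in each of those centres. Its upper quartile was longer as well, with 9829 bp on V and 8093.8 to 8495 bp in the other centres.

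Central peaks with a close neighbour had more evidence than those without. The 528 peaks with a neighbour within 1 kb had a median −log10 q of 15.4, a median width of 505.5 bp and a median ratio of 2.14. For the 412 with the nearest neighbour at 1 to 5 kb these were 9.97, 407 bp and 2.03, and for the 186 at 5 to 20 kb 7.98, 396 bp and 1.93. The 24 with no neighbour within 20 kb had 8.84, 341 bp and 2.08. Medians of −log10 q and of the ratio thus went down over the first 3 classes and were higher again in the last, which is small. The quartiles overlapped (5.95 to 35.2 and 4.0 to 18.0 in −log10 q for the nearest class and the one at 5 to 20 kb). Of the 44 peaks with q under 1e-100, 30 (68.2%) had a neighbour within 1 kb, against 45.9% of all peaks in the centre of V. Neighbours resembled each other little in enrichment, with a Spearman's rho of 0.16 between the ratios of the 157 pairs 200 to 500 bp apart and values of 0.066 to 0.41 in the other centres.

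Chains of at least 5 peaks joined by gaps under 1 kb numbered 11 in the centre of V and held 69 of its peaks (6.0%, 4.70 to 7.53). In the other centres 3.77% to 6.03% of the peaks were in such chains, in the rest of V 1.02%, or 5 peaks, and in the whole list 3.66%. Peaks in the chains of V had a median width of 804 bp and a median −log10 q of 29.7, against 427 bp and 10.8 for the other central peaks. Of the 11 chains, 8 contained a peak with q under 1e-100. The chains held 15 of the 44 such peaks. No gap in the whole list was under 200 bp. Whether the peaks of a chain, or other close peaks, are separate binding sites was not tested.

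**Figure D5:**
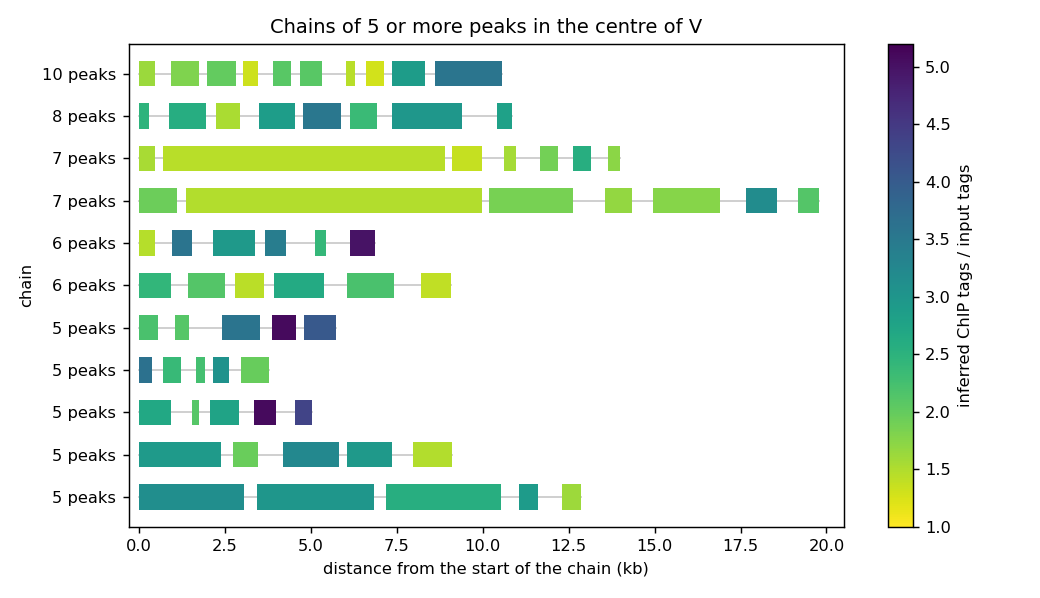
The 11 chains of 5 or more peaks in the centre of V, drawn to scale from the start of each (kb), with boxes for peaks coloured by the ratio of inferred ChIP to input tags. The chains with 7 peaks contain the widest peaks, which have ratios of 1.45 and 1.49, and the most enriched boxes, at 5.0 to 5.1, are 630 to 730 bp wide.

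Within chains, enrichment varied from peak to peak. The chain with most peaks, 10 from 14498102 to 14508670, had ratios from 1.28 to 3.56. Its last 2 peaks, from 14505460 to 14506432 and from 14506724 to 14508670, had ratios of 2.90 and 3.56, and the 8 before them 1.28 to 2.09. The chain of 8 peaks from 11672412 to 11683252 had ratios of 1.53 to 3.53, with 6 of its peaks at q under 1e-20. The chain from 10711616 to 10731397 was the longest, at 19.8 kb, and peaks covered 83.0% of it. Like the other chain with 7 peaks, from 6221177 to 6235178, it contained a peak over 8 kb and had a low ratio of summed tags, 1.69 and 1.51. Those sums were led by the widest peak, which gave 7309 of the 13846 ChIP tags of the longest chain. The ratio of summed tags was higher in the chains from 6347055 to 6352779 (5 peaks, 3.61), from 11798956 to 11803981 (5 peaks, 3.39) and from 8403199 to 8410070 (6 peaks, 3.24). The shortest chain, 3.80 kb from 9441562 to 9445360, had 2.52. The remaining 3 chains had summed ratios of 2.13 to 2.81.

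At the opposite end, 24 central peaks (2.09%, 1.34 to 3.09) had no neighbour within 20 kb. In the rest of V there were 73 (15.0%, 11.9 to 18.4), in the other centres 0.195% to 1.46%, and in the whole list 2.8%. Isolation was thus more frequent in the centre of V than in the other centres by count, although the intervals for I (0.518 to 1.85) and IV (0.838 to 2.36) overlapped that of V. The isolated central peaks had a median width of 341 bp and a median −log10 q of 8.84. Strong ones occurred among them, since 2 had a q under 1e-100, from 5385618 to 5386508 and from 12928794 to 12929514.

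The longest stretch without a peak in the centre ran from 8803700 to 8922725, a gap of 119 kb. It was followed by gaps of 93.4 kb from 6113198, 87.9 kb from 5433532, 84.7 kb from 7111688 and 80.7 kb from 14241983. In the centres of I, II and III the longest gaps were 70254 to 83272 bp, and in that of IV 215030 bp, while the rest of V had one of 369153 bp. Of the 5 longest gaps of the centre of V, 3 lay in its first 2 Mb, on both sides of the block with 78 peaks.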

How the data were processed

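Peaks were called with PeakSeq on WormBase WS180, per the file headers and the source column. The authors deposited 1 combined list with a q-value for each peak, at most 0.01. Per the labels' protocols, larvae were fixed with 2% formaldehyde and quenched with 100 mM Tris. The aligner, read filters and the way replicates were combined are not given in the sources used here.

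From the list, widths, gaps, densities and medians were computed with Python 3.11.15, numpy 2.4.6, scipy 1.17.1 and pandas 2.3.3, and drawn with matplotlib 3.10.9. Each q times its rank, divided by 16906 candidate regions, was matched to a binomial tail with even chance, with ranks 12 above the place in the list and a relative tolerance of 1e-11. The candidate number and rank shift were those that matched most of 20 peaks (17, and 0 for the next best). One such pair of whole counts matched 10158 peaks, 1 of them with its rank raised by 1. The inference was tested on simulated data. A scaling of the input tags before calling is likewise not stated there, so inferred input numbers may be scaled ones, and depth per library is unknown. Whether the libraries of a group came from separate cultures is not stated in the labels.

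The gene table in hand is of another build and was not used. Named peaks were the 25 of lowest q, the 5 widest, the chains, the 5 longest gaps and 2 peaks on each side of each edge. Highest ratios, narrowest and isolated peaks were picked after their values were seen. The members, lists and comparisons were chosen with earlier results of these data known.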

Additional observations from a re-analysis of the deposited data

How the results depend on the processing

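Of 90 recomputed values, 78 kept their direction and moved by less than a limit. For most results the limit was 1 SD over the 500 kb blocks of the centre of V. For the central share it was the exact binomial interval, and for the number of chains and the variation of block counts 1.5 times. Some limits were larger than the result, such as 43.1 bp for the width difference of 20 bp between the centre and the rest of V. Such results could hardly fail except by sign, so the 78 is no measure of stable size. The ratio difference between the centre and the rest of V was among them although it fell from 0.18 to 0.072 with q of at most 1e-05. The central share of V moved to 75.2% with q of at most 1e-05 and to 66.6% with peaks less than 1 kb apart joined. It was 60.5% with the centre from 0.3 to 0.7 of the span and 51.6% with the middle one of 3 equal parts. These windows are smaller, so the share falls with their size. The density of the centre over that of the rest of V was 2.30 and 2.14 in them, against 2.36. The number of chains was 2 with gaps under 500 bp and 25 with gaps under 2 kb, against 11.

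Small differences changed sign. The median width of the centre of V minus the rest of V, 20 bp, was −3 bp with the centre from 0.3 to 0.7. Median −log10 q of the centre of V minus the other centres, 0.27, was −0.31 with that centre, −0.34 with the middle one of 3 equal parts and −1.77 in peaks of 300 to 500 bp, which was added after seeing the data. The share of gaps under 1 kb minus that of the other centres, −0.47 points, was 0.94 with peaks of at least 200 bp and 0.20 without II. The cause was not tested.

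No paired analysis was possible because both ChIP and both input libraries went into the same q-values, and for the same reason no replicate was left out. Unknown depth limits what can be said of weak sites.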
